A study of Homo sapiens with 52 samples.

Results

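The human mitochondrial genome encodes 37 RNAs, and all of them were present in the table of counts: the genes whose symbols begin with MT- on the mitochondrial chromosome, 37 of 63241 genes in all. They fall into 3 classes, described apart here, with 13 protein-coding genes, 2 rRNA genes and 22 tRNA genes. RNA was measured in i3Neurons, neurons made from the human induced pluripotent stem cell line WTC11 by a doxycycline-inducible programme, grown on culture inserts whose 1 µm pores let neurites through and hold cell bodies back, replated on day 3 and harvested on day 17. Each culture gave a neurite fraction from below the membrane and a soma fraction from above it, so the soma fraction also holds the neurites beside the cell bodies. The 10 groups were the neurites and the soma of untreated neurons (no guide RNA; 4 libraries per fraction), of neurons with hnRNPA1 knockdown and their nontargeting controls (6 libraries in each of the 4 groups), and of neurons with TDP43 knockdown (5 neurite and 4 soma libraries) and their nontargeting controls (5 per fraction). All neurons came from 1 cell line, and both knockdown and nontargeting cells were transduced with a guide RNA as stem cells and selected, while untreated cells carried none. Libraries held total RNA, made from 10 ng per sample with version 2 of the kit for untreated neurons and version 3 for both knockdown experiments, so kit version and experiment cannot be told apart. The labels do not say whether numbered samples were separate cultures, so p-values measure the spread between these samples, which may be technical.

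Mitochondria keep a small circular genome of their own. A dedicated polymerase, POLRMT, transcribes both of its strands into long precursors, and most mRNAs and rRNAs are released when the tRNAs that lie between them are cut out. Every protein it encodes is a subunit of the oxidative phosphorylation machinery: complex I (MT-ND1 to MT-ND6 and MT-ND4L), complex III (MT-CYB), complex IV (MT-CO1, MT-CO2 and MT-CO3) and ATP synthase, complex V (MT-ATP6 and MT-ATP8), and the remaining subunits are made from nuclear genes. The rRNAs and tRNAs serve the ribosomes inside the organelle that translate these mRNAs. In neurons, mitochondria travel along axons and dendrites on motor proteins and carry this genome and its RNAs with them.

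Some sequences that the results turn on are shown here. MT-TP (proline, chrM:15956-16023), MT-TC (cysteine, chrM:5761-5826) and MT-TN (asparagine, chrM:5657-5729), all on the minus strand, held the largest part of the tRNA counts in the knockdown experiments. MT-TS2 (serine, chrM:12207-12265, plus strand) was the only one of the 37 genes called lower in TDP43 knockdown neurites. Capitals mark the anticodon in the tRNAs. A stretch of the plus strand at chrM:8513-8586 shows where MT-ATP8 and MT-ATP6, which lie in different reading frames, share 46 bases, in capitals, so that a read there cannot be given to 1 of them. The sequences are written 5′ to 3′ from the transcripts of GENCODE release 29, on GRCh38.
MT-TP: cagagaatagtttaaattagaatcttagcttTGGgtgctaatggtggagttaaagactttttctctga
MT-TC: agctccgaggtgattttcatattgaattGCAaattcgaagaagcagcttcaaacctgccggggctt
MT-TN: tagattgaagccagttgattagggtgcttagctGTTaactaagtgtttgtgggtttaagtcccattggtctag
MT-TS2: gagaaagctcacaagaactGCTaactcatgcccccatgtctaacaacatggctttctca
MT-ATP8 and MT-ATP6: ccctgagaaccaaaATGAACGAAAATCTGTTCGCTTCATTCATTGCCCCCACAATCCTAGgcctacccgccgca

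In units of 1e6 counts, libraries held 2.54 to 4.35 in untreated neurites and 5.21 to 10.5 in untreated soma, 6.26 to 9.66 and 8.002 to 16.2 in hnRNPA1 knockdown neurites and soma, 8.63 to 14.98 and 10.9 to 19.4 in their controls, 6.83 to 14.5 and 16.2 to 28.9 with TDP43 knockdown and 9.17 to 12.8 and 15.7 to 20.3 in its controls. Another TDP43 knockdown soma library held 541 counts and was left out. The targeted genes were lower where the labels place the knockdown: HNRNPA1 had 200.1 ± 15.9 CPM in knockdown and 587 ± 32.5 CPM in nontargeting neurites, and 140.1 ± 9.29 against 359 ± 20.6 CPM in soma (SD, n = 6 each), and TARDBP, the gene of TDP43, had 41.6 ± 4.29 against 117 ± 7.23 CPM in neurites (SD, n = 5 each) and 19.5 ± 0.937 against 110.3 ± 4.57 CPM in soma (SD, n = 4 and 5). All 10 markers of neurons exceeded 1 CPM on average in every group. CPM are counts per 1000000 counts of a library size scaled by TMM within 1 experiment, so CPM are compared within an experiment and shares of counts across experiments. In bulk samples fewer cells of a type, or fewer mitochondria, and less RNA per cell or per mitochondrion cannot be told apart.

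Mitochondrial RNA made up a larger part of the neurite libraries than of the soma libraries in each of the 5 conditions, for every class. Summed, the 37 genes held 12.6 ± 2.23% of the counts from untreated neurites, against 3.70 ± 0.359% from untreated soma (SD, n = 4 each), 8.79 ± 1.187% and 2.28 ± 0.316% with hnRNPA1 knockdown, 6.54 ± 0.659% and 1.95 ± 0.333% in its controls (SD, n = 6 each), 5.22 ± 0.696% and 1.42 ± 0.225% with TDP43 knockdown (SD, n = 5 and 4), and 3.56 ± 0.543% and 1.35 ± 0.129% in its controls (SD, n = 5 each). Untreated neurites held the highest share of the 10 groups and TDP43 nontargeting soma the lowest. The shares are percentages of all counts in a library, and they carry no test.

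The 13 protein genes held 8.01, 7.83, 6.46 and 5.77% of counts in the 4 untreated neurite libraries and 2.37, 2.42, 2.58 and 2.72% in the 4 soma libraries. With hnRNPA1 knockdown their share had a lowest of 4.25, a median of 5.75 and a highest of 6.59% in neurites, and a lowest of 1.29, a median of 1.72 and a highest of 1.85% in soma. The hnRNPA1 nontargeting libraries had a lowest of 3.83, a median of 4.55 and a highest of 5.20% in neurites, and a lowest of 1.09, a median of 1.47 and a highest of 1.94% in soma. In each of these conditions every neurite library was above every soma library. With TDP43 knockdown the protein genes held 2.89, 3.07, 4.07, 2.9998 and 3.22% in neurites and 1.146, 1.01, 0.910 and 0.814% in soma, and in the TDP43 nontargeting libraries 2.50, 2.33, 1.41, 1.95 and 2.44% in neurites and 1.04, 0.885, 0.922, 0.885 and 0.833% in soma. Here too the fractions did not overlap, and all 5 knockdown neurite libraries were above all 5 nontargeting neurite libraries. The ratio of the mean neurite share to the mean soma share was 2.78 in untreated cells, 3.49 with hnRNPA1 knockdown, 3.04 in its controls, 3.35 with TDP43 knockdown and 2.33 in its controls.

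The rRNA share differed more between fractions than the protein share in each condition. MT-RNR1 and MT-RNR2 together held 5.49 ± 1.169% of the counts from untreated neurites, against 1.141 ± 0.205% from soma, 3.11 ± 0.416% and 0.650 ± 0.105% with hnRNPA1 knockdown, 2.04 ± 0.426% and 0.465 ± 0.118% in its controls, 1.94 ± 0.282% and 0.436 ± 0.0898% with TDP43 knockdown, and 1.41 ± 0.117% and 0.427 ± 0.0654% in its controls (SD, n as above). The 22 tRNA genes held far smaller shares, 0.0855 ± 0.00725% in untreated neurites and 0.0420 ± 0.00968% in untreated soma. In the version 3 libraries the tRNA shares were lower than in untreated cells in both fractions: 0.0281 ± 0.00439% in neurites and 0.0120 ± 0.000748% in soma with hnRNPA1 knockdown, 0.0261 ± 0.00301% and 0.0117 ± 0.00151% in its controls, 0.0292 ± 0.00363% and 0.00969 ± 0.00154% with TDP43 knockdown, and 0.0212 ± 0.00113% and 0.00891 ± 0.000752% in its controls. Counts over a tRNA gene come from the mature tRNA or from longer precursors that still hold it, and cannot tell these apart.

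On the CPM scale the summed protein genes had 107800.0 ± 24022 CPM in untreated neurites and 16592 ± 1271 CPM in soma, 68620.0 ± 13255 and 14407 ± 2157 CPM with hnRNPA1 knockdown, 48968 ± 6234 and 12584 ± 2211 CPM in its controls, 38716 ± 7073 and 7836 ± 1332 CPM with TDP43 knockdown, and 26034 ± 1771 and 7350.4 ± 662 CPM in its controls (SD, n as above). The summed rRNA genes had 84708 ± 24091 against 7502 ± 1342 CPM in untreated neurites and soma, 37719 ± 7238 against 5794 ± 1085 with hnRNPA1 knockdown, 22517 ± 5887 against 4013 ± 1213 in its controls, 23168 ± 4696 against 3525 ± 808 with TDP43 knockdown, and 17662 ± 2254 against 3445 ± 569.6 in its controls. The summed tRNA genes had 1307 ± 193 against 276 ± 62.0 CPM in untreated cells, 341 ± 72.8 against 107 ± 7.80 with hnRNPA1 knockdown, 286 ± 39.3 against 100.1 ± 12.4 in its controls, 347 ± 54.7 against 78.2 ± 14.4 with TDP43 knockdown, and 269 ± 57.2 against 71.7 ± 5.80 in its controls. Neurite to soma ratios of CPM exceed those of shares because the TMM factors differed between fractions, most in untreated cells, where they averaged 0.659 in neurites and 1.52 in soma.

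7SL, the RNA of the signal recognition particle, took a large and variable part of some neurite libraries. It held 1.42 ± 0.512% of the counts from untreated neurites, against 0.496 ± 0.157% from soma, 14.1 ± 2.91% and 3.02 ± 0.211% with hnRNPA1 knockdown, 10.4 ± 2.46% and 2.29 ± 0.568% in its controls, 14.4 ± 11.5% and 2.36 ± 0.377% with TDP43 knockdown, and 27.4 ± 12.2% and 2.096 ± 0.422% in its controls. Its mean was lower with TDP43 knockdown in neurites, where it ran from 5.65 to 31.7% against 17.2 to 45.7% in the controls, and its part in the shares was not tested. Of the counts outside 7SL and rRNA genes, the protein genes held 4.07 ± 0.648% in TDP43 knockdown neurites (3.34 to 4.84%) and 3.06 ± 0.202% in nontargeting neurites (2.77 to 3.33%), and these groups did not overlap either. On that base they held 7.58 ± 1.222% against 2.57 ± 0.173% in untreated neurites and soma, 7.08 ± 1.26% against 1.75 ± 0.256% with hnRNPA1 knockdown, and 5.21 ± 0.583% against 1.56 ± 0.290% in its controls, and soma held 1.03 ± 0.155% with TDP43 knockdown and 0.975 ± 0.0788% in its controls.

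**Figure D1:**
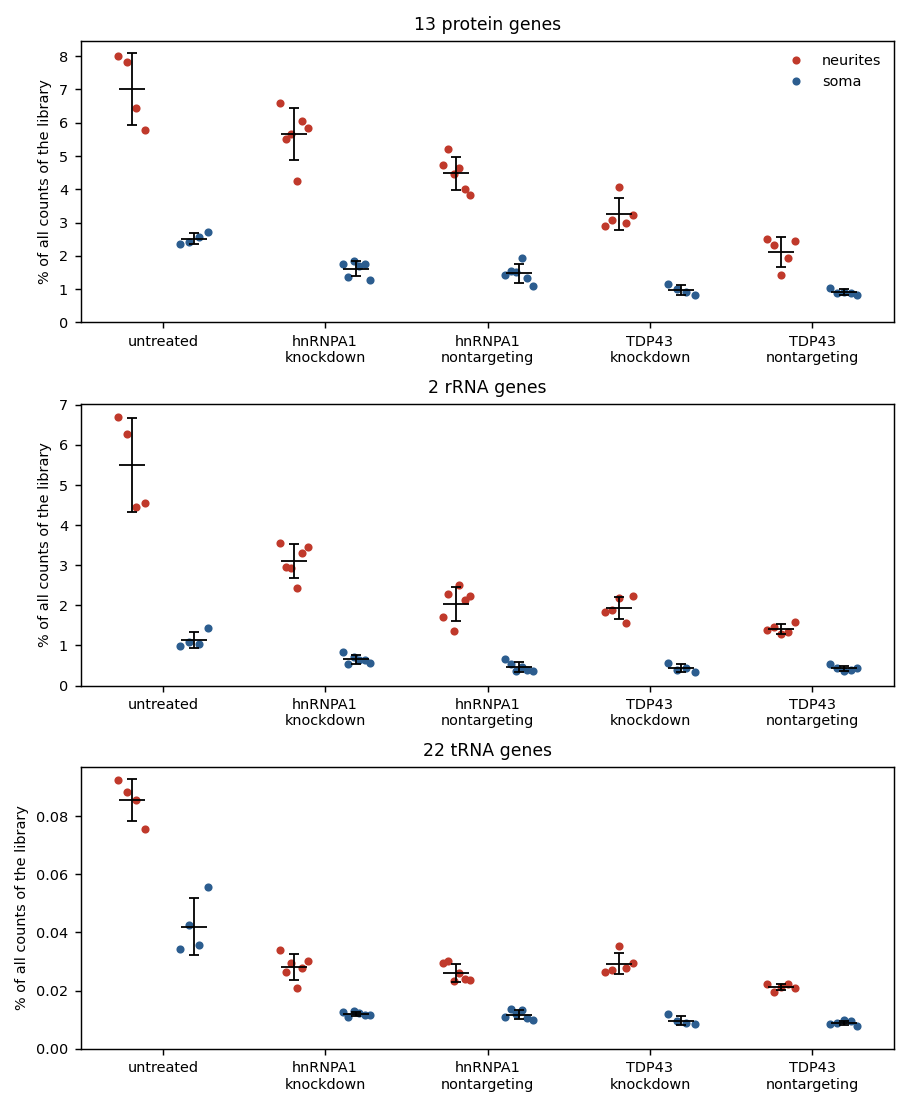
Share of each library's counts (percent, axes from 0) in the 13 protein genes, the 2 rRNA genes and the 22 tRNA genes, for the 5 conditions, with 1 point per library and neurites drawn left of soma. Protein and rRNA points of neurites lie above those of soma in each condition, and the tRNA shares of untreated libraries lie above those of the same fraction in the knockdown experiments.

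Levels of single genes were compared as CPM per 1000 bases of gene length. The 2 rRNAs stood highest in 9 of the 10 groups. In untreated neurites MT-RNR2, the large-subunit rRNA, had 34183 and MT-RNR1, the small-subunit rRNA, 32931 CPM per 1000 bases, followed by MT-ND4 with 13291 and MT-ND6 with 12427. In untreated soma MT-RNR2 had 3049, MT-RNR1 2882, MT-ND6 2209.5 and MT-ND4 1901 CPM per 1000 bases. The exception was hnRNPA1 nontargeting soma, where MT-CO1, the catalytic subunit of complex IV, had 1632 CPM per 1000 bases, between MT-RNR2 with 1648 and MT-RNR1 with 1513. MT-CO1 was the highest protein gene in all 8 groups of the knockdown experiments, with 9796 CPM per 1000 bases in hnRNPA1 knockdown neurites and 6699.9 in their controls, and 5519 in TDP43 knockdown neurites and 3927 in their controls. MT-ND3, a short complex I gene, was the lowest of the 15 protein and rRNA genes in all 10 groups, with 3979 CPM per 1000 bases in untreated neurites and 617 in untreated soma.

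Neighbours in this order often overlapped. In untreated neurites the 4 libraries had 70790.0, 63078, 38633 and 40667 CPM of MT-RNR2 and 39640.0, 36911, 23948 and 25163 CPM of MT-RNR1, whose levels per 1000 bases differed by less than the spread of either. MT-ND4 had 22622, 21974, 14775 and 13887 CPM and MT-ND6 had 8469, 7633, 5209 and 4786 CPM in the same libraries. MT-ND6 is the only protein gene on the light strand, and since the strand setting of the counting is not given, its counts may include reads of heavy-strand precursors across it, and the same holds for the 8 light-strand tRNAs.

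As a share of the 13 genes' own counts, MT-CO1 was lower in untreated cells than in either knockdown experiment in both fractions, and some complex I genes differed between fractions. MT-CO1 held 15.4% of protein-gene counts in untreated neurites and 15.5% in untreated soma, 22.1% and 20.3% with hnRNPA1 knockdown, 21.1% and 20.01% in its controls, 21.9% and 21.1% with TDP43 knockdown, and 23.3% and 20.9% in its controls. MT-ND5, the longest complex I gene, held 14.2 ± 0.227% in untreated neurites, against 16.1 ± 0.549% in untreated soma (SD, n = 4 each). MT-ND1 held more of the protein counts in neurites than in soma: 8.83 ± 0.219% against 7.30 ± 0.209% in untreated cells (SD, n = 4 each), and 10.2 ± 0.218% against 8.21 ± 0.276% with TDP43 knockdown (SD, n = 5 and 4). MT-ND6 held less in neurites, 5.997 ± 0.339% against 6.99 ± 0.229% in untreated cells.

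**Figure D2:**
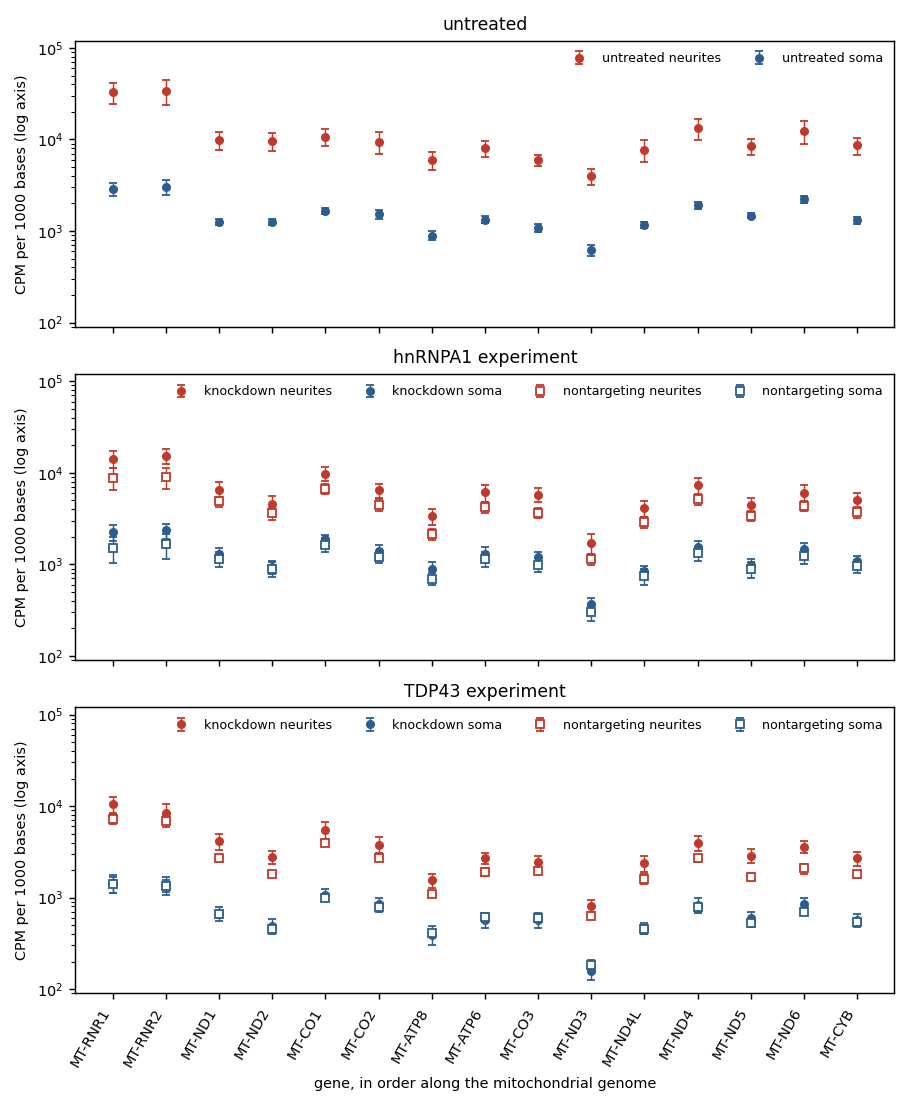
Mean level of the 15 protein and rRNA genes in CPM per 1000 bases (log axis, bars are 1 SD) in genome order, with 1 panel per experiment, neurites before soma, and open squares for nontargeting controls. The 2 rRNA genes at the left stand highest in most groups and MT-ND3 lowest in all, and the neurite points lie above the soma points of the same condition.

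The first comparison asked how the RNAs of the mitochondrial genome divide between neurites and soma. In edgeR's quasi-likelihood test with Benjamini-Hochberg adjustment over all genes of an experiment, all 13 protein genes and both rRNAs were higher in neurites than in soma in each of the 5 conditions, and in all of them neurite and soma CPM did not overlap. In untreated cells all 22 tRNAs were higher too, so 37 of 37 genes were called higher, where 28.7% of the 18556 genes tested were. Of all genes tested there 26.7% were higher without overlap. Differences below are log2 of neurites over soma with their standard error, so that 1 is a doubling.

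Complex I takes electrons from NADH and pumps protons. Of its genes, MT-ND1 had 11328, 11358, 7945 and 7422 CPM in untreated neurites, against 1129.7, 1148, 1234 and 1334 CPM in untreated soma. The lowest neurite library was several times the highest soma library. Its log2 difference was 2.97 ± 0.17, adjusted p = 1.17e-12, the largest of the 13 protein genes, and it was also the largest in hnRNPA1 nontargeting cells (2.08 ± 0.13), TDP43 knockdown cells (2.62 ± 0.13) and TDP43 nontargeting cells (2.04 ± 0.12). The other complex I genes of untreated cells lay at 2.94 (MT-ND2), 2.69 (MT-ND3), 2.81 (MT-ND4), 2.74 (MT-ND4L), 2.52 (MT-ND5) and 2.49 (MT-ND6). MT-ND4 had 22622, 21974, 14775 and 13887 CPM in untreated neurites, against 2530.2, 2362, 2767 and 2817 CPM in soma. MT-ND6 had 8469, 7633, 5209 and 4786 CPM in untreated neurites, against 1135, 1020.5, 1243 and 1242 CPM in soma. Both were apart between the fractions by a wide margin.

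Complexes III and IV pass the electrons on to oxygen, and complex V makes ATP. MT-CYB, cytochrome b of complex III, had 12073, 11135, 8458 and 7768 CPM in untreated neurites, against 1388, 1396, 1576 and 1634 CPM in soma, a log2 difference of 2.72 ± 0.16, adjusted p = 3.68e-12. MT-CO1 had 20805, 18295, 14452 and 12921 CPM in untreated neurites, against 2514, 2366, 2593 and 2835 CPM in soma, a log2 difference of 2.69 ± 0.17, adjusted p = 1.02e-11. MT-CO3 had the smallest difference of the protein genes there, 2.47 ± 0.14, adjusted p = 1.22e-12, with 5427, 5027, 4357 and 3989 CPM in neurites, against 759, 804, 911 and 930.0 CPM in soma. Even for MT-CO3 the fractions were far apart. MT-CO2 lay at 2.64, MT-ATP6 at 2.596 and MT-ATP8 at 2.73. MT-ATP8 had the smallest difference of the 13 genes in each of the other conditions: 1.92 ± 0.13 with hnRNPA1 knockdown, 1.62 ± 0.12 in its controls, 1.98 ± 0.12 with TDP43 knockdown and 1.43 ± 0.11 in its controls. It shares 46 of its bases with MT-ATP6, as shown above, so reads there may have been divided between them or left out.

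In the hnRNPA1 experiment MT-CO1 had a lowest of 10431, a median of 15442 and a highest of 18323 CPM in knockdown neurites, against a lowest of 2438, a median of 3049.8 and a highest of 3310.5 CPM in knockdown soma, with a log2 difference of 2.37, the largest there. All 13 protein genes were called with the knockdown, with a median of 2.24, and all 13 in the controls, with differences from 1.62 to 2.08, where 19.4% and 23.5% of all 19812 genes tested were called higher. Genes higher without overlap made up 12.2% and 14.1% of all. In the TDP43 experiment all 13 were called with the knockdown, with a median of 2.25, where 28.7% of all 22014 genes were called higher, and all 13 in the controls, with differences from 1.43 to 2.04, where 24.1% were. Genes higher without overlap made up 23.7% and 16.5% of all. MT-ND1 there had 3588, 5022, 4611, 3110.0 and 3520.0 CPM in knockdown neurites, against 806, 657, 577 and 536 CPM in knockdown soma, and 2926, 2577, 2268, 2542 and 2580.3 CPM in nontargeting neurites, against 708, 633, 624, 637 and 542 CPM in nontargeting soma. The neurite libraries were the higher ones in both conditions.

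These sizes depend on how libraries are scaled. With plain library sizes the median log2 difference of all genes tested moved to -1.40 in untreated cells (it was -0.21 with TMM), -0.46 with hnRNPA1 knockdown, -0.40 in its controls, -0.56 with TDP43 knockdown and -0.63 in its controls, the last 4 having been between -0.05 and -0.02. The protein medians then were 1.47, 1.79, 1.57, 1.69 and 1.1604, and all 13 genes were still called higher in each condition.

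**Figure D3:**
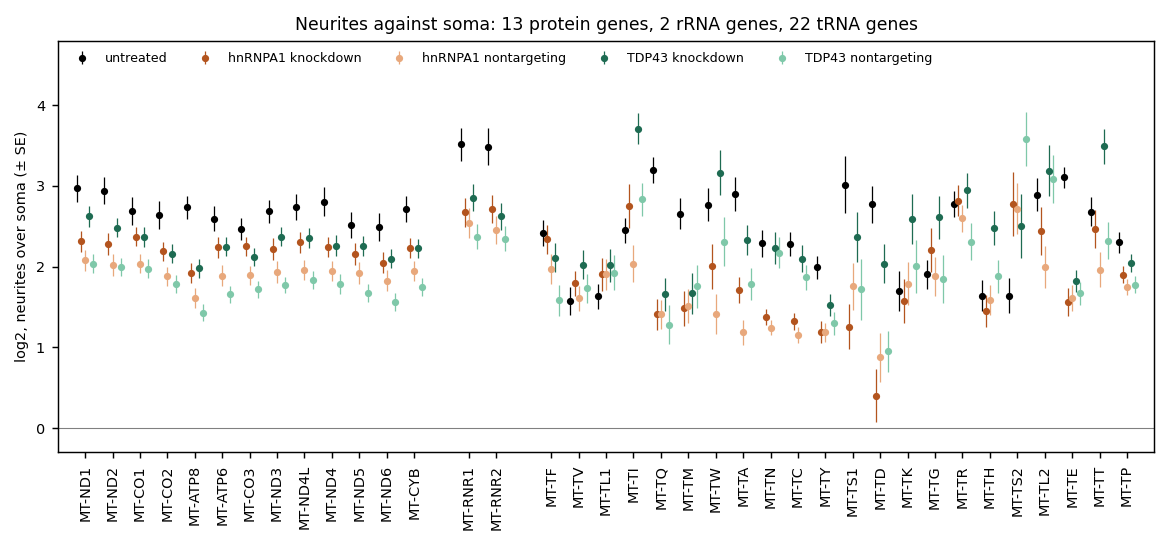
Log2 difference of neurites over soma (± SE) for the 13 protein genes, 2 rRNA genes and 22 tRNA genes in the 5 conditions. Protein genes lie between 1.43 and 2.97 and rRNA genes between 2.35 and 3.51, while tRNA genes are spread from 0.40 to 3.71.

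Both rRNAs had larger neurite to soma differences than the median mRNA in each condition; that gap itself was not tested. In untreated cells MT-RNR1 had 39640.0, 36911, 23948 and 25163 CPM in neurites, against 2494, 2527, 2530.0 and 3447 CPM in soma, a log2 difference of 3.51 ± 0.21, adjusted p = 2.59e-12. MT-RNR2 had 70790.0, 63078, 38633 and 40667 CPM in neurites, against 4166, 4370.3, 4415 and 6061 CPM in soma, a log2 difference of 3.49 ± 0.23, adjusted p = 1.72e-11. Both exceeded every protein gene of the same cells. The differences were 2.68 and 2.72 with hnRNPA1 knockdown, 2.54 and 2.46 in its controls, 2.85 and 2.62 with TDP43 knockdown and 2.37 and 2.35 in its controls, for MT-RNR1 and MT-RNR2 in that order, and each was called.

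For each 100 counts of protein genes, rRNA genes had 77.8 ± 6.37 counts in untreated neurites (68.8 to 83.7) and 45.1 ± 5.69 in soma (39.99 to 53.0). With hnRNPA1 knockdown the ratio was 55.1 ± 2.65 in neurites (51.7 to 58.9) and 40.3 ± 4.63 in soma (35.8 to 47.6), and with TDP43 knockdown 59.9 ± 7.18 (51.9 to 69.5) and 44.8 ± 4.86 (38.99 to 49.1). In these 3 conditions, and in the TDP43 nontargeting cells with 68.5 ± 13.4 (55.2 to 90.6) against 46.8 ± 5.60 (38.8 to 52.05), no neurite library was below a soma library. The hnRNPA1 nontargeting libraries overlapped, with 46.0 ± 11.1 in neurites (30.4 to 58.3) and 32.1 ± 8.58 in soma (23.9 to 47.1). This ratio is free of library scaling, but both rRNAs are counted in total RNA, and the labels do not say whether the removal of rRNA in the kit acts on them. MT-RNR2 counts per MT-RNR1 count were 1.68 ± 0.0828 in untreated neurites and 1.73 ± 0.0388 in soma, 1.78 ± 0.139 and 1.71 ± 0.0602 with hnRNPA1 knockdown, 1.69 ± 0.0780 and 1.78 ± 0.0605 in its controls, 1.34 ± 0.192 and 1.56 ± 0.0626 with TDP43 knockdown, and 1.53 ± 0.0721 and 1.58 ± 0.0724 in its controls. TDP43 knockdown neurites, at 1.09 to 1.54, had the lowest mean and overlapped with their controls at 1.41 to 1.597.

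**Figure D4:**
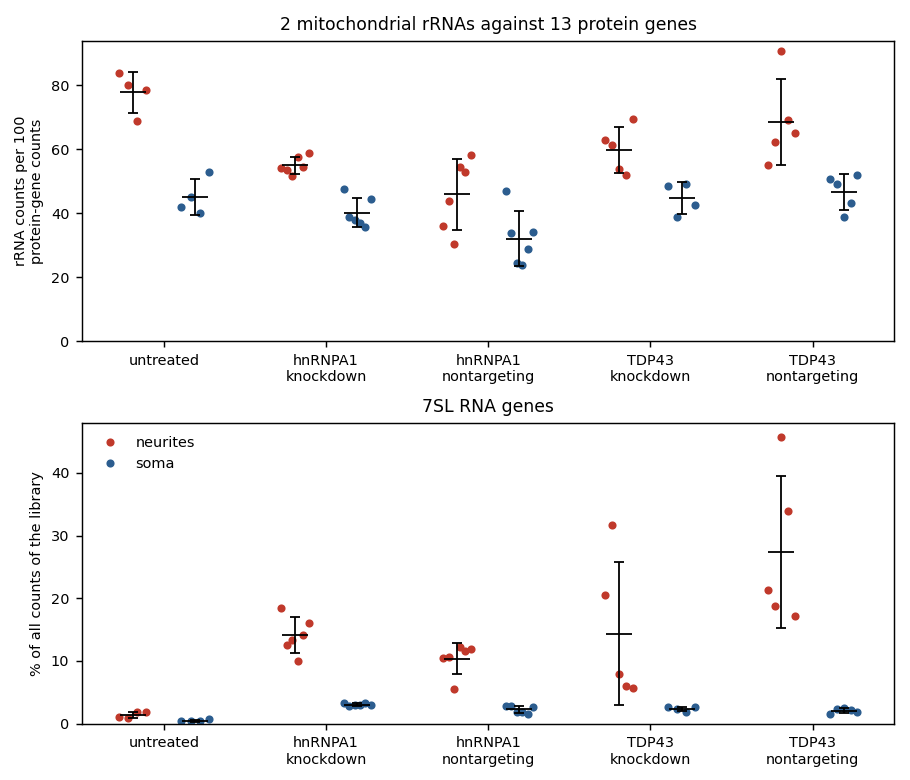
Counts of the 2 mitochondrial rRNA genes per 100 counts of the 13 protein genes, and 7SL genes as a percent of all counts, with 1 point per library in the 5 conditions, neurites left of soma. The rRNA ratio of neurites lies above that of soma except for overlapping libraries of the hnRNPA1 nontargeting controls, and the highest single values and the widest spread of 7SL are in neurites of the TDP43 experiment.

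The tRNA genes were uneven in level and in their division between fractions. For each 1000 protein counts, tRNA genes had 12.3 ± 1.03 counts in untreated neurites and 16.6 ± 3.02 in soma, 4.96 ± 0.255 and 7.51 ± 0.834 with hnRNPA1 knockdown, 5.84 ± 0.383 and 8.04 ± 0.786 in its controls, 8.996 ± 0.245 and 9.98 ± 0.391 with TDP43 knockdown, and 10.5 ± 2.86 and 9.80 ± 0.981 in its controls. MT-TP, MT-TC and MT-TN, the light-strand tRNAs shown above, held 29.6% of tRNA counts in untreated neurites and 29.1% in untreated soma, but 52.1% and 56.0% with hnRNPA1 knockdown, 53.4% and 58.0% in its controls, 57.8% and 58.7% with TDP43 knockdown, and 62.6% and 60.7% in its controls. The 8 light-strand tRNAs together held 53.4% in untreated neurites and 45.6% in soma, and from 66.2% to 76.8% in the 8 groups of the version 3 libraries. In untreated neurites the most abundant were MT-TP with 187 ± 41.0 CPM, MT-TV with 172 ± 29.8 CPM, MT-TC with 134 ± 29.7 CPM and MT-TE with 118 ± 18.7 CPM (SD, n = 4), and the least abundant was MT-TS1 with 5.91 ± 1.26 CPM. In hnRNPA1 nontargeting neurites MT-TP had 61.2 ± 8.26 CPM, MT-TC 50.0 ± 7.73 CPM and MT-TN 41.0 ± 4.02 CPM (SD, n = 6), and MT-TS1 again was lowest, with 0.950 ± 0.175 CPM. In the soma of the version 3 libraries, tRNAs such as MT-TS1, MT-TS2, MT-TD and MT-TK averaged below 1 CPM.

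All 22 tRNAs were called higher in neurites in untreated cells, in hnRNPA1 nontargeting cells and in both conditions of the TDP43 experiment. The hnRNPA1 knockdown was the exception, with 21 of 22, because MT-TD, the aspartate tRNA, had 0.460 to 1.92 CPM in neurites and 0.538 to 1.65 CPM in soma, a log2 difference of 0.40 ± 0.33, adjusted p = 0.361. In hnRNPA1 nontargeting cells MT-TD had 0.540 to 1.897 CPM in neurites and 0.339 to 0.955 CPM in soma, with a difference of 0.88 ± 0.31, adjusted p = 0.0179, a call lost without nontargeting neurite library 3 or 4. Neurite and soma CPM did not overlap for all 22 tRNAs in untreated cells and in both TDP43 conditions, for 20 with hnRNPA1 knockdown (not MT-TD and MT-TS1) and for 21 in its controls (not MT-TD). In untreated cells the differences ran from 1.58 ± 0.17 for MT-TV, the valine tRNA that lies between the rRNA genes, to 3.19 ± 0.16 for MT-TQ, the glutamine tRNA. MT-TV had 189, 204, 157 and 138 CPM in untreated neurites, against 44.3, 57.3, 42.6 and 86.5 CPM in soma, and MT-TQ had 44.5, 36.9, 33.9 and 30.3 CPM in neurites, against 3.59, 4.14, 3.80 and 4.30 CPM in soma. The tRNA between the genes with the largest differences thus had the smallest difference of the tRNAs. With plain library sizes 18 of 22 tRNAs stayed called in untreated cells, MT-TV, MT-TK, MT-TH and MT-TS2 being the ones lost.

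The order of the tRNAs differed between conditions. MT-TI, the isoleucine tRNA, had the largest difference with TDP43 knockdown, 3.71 ± 0.20, with 7.45, 6.80, 8.93, 7.83 and 8.11 CPM in neurites, against 0.766, 0.445, 0.596 and 0.596 CPM in soma. MT-TS2 had the largest difference in both sets of controls, 2.72 ± 0.32 in hnRNPA1 nontargeting cells and 3.59 ± 0.33 in TDP43 nontargeting cells, against 1.64 ± 0.22 in untreated cells. MT-TR, the arginine tRNA, had the largest with hnRNPA1 knockdown, 2.82 ± 0.19. Several of these tRNAs stand on few counts, MT-TS2 on 3 to 5 counts per library in TDP43 nontargeting soma.

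The second comparison asked what knockdown of hnRNPA1, a nuclear RNA-binding protein of splicing and export, did to these RNAs. In neurites the mRNAs and rRNAs were higher with the knockdown: 12 of 13 protein genes and both rRNAs passed the test, where 8.95% of all 19812 genes were called higher, with a median log2 difference of knockdown over nontargeting of 0.51 over the 13 and 0.0031 over all genes. The groups overlapped for all 37 genes, where 3.95% of all genes were higher without overlap. In soma no protein gene passed.

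MT-CO3 had a lowest of 3129.6, a median of 4636 and a highest of 5504 CPM in hnRNPA1 knockdown neurites, and a lowest of 2465, a median of 2749 and a highest of 3412 CPM in nontargeting neurites, a log2 difference of 0.66 ± 0.11, adjusted p = 0.000122. MT-ATP8 had a lowest of 508, a median of 690.1 and a highest of 889 CPM in knockdown neurites, and a lowest of 342, a median of 431 and a highest of 529 CPM in nontargeting neurites, with a difference of 0.66 ± 0.12, adjusted p = 0.000245. MT-CO1 had a lowest of 10431, a median of 15442 and a highest of 18323 CPM in knockdown neurites, and a lowest of 9223, a median of 9823 and a highest of 12521 CPM in nontargeting neurites, with a difference of 0.55 ± 0.11, adjusted p = 0.00108. In each of these genes the medians differed and the highest nontargeting libraries reached into the knockdown range. The complex I genes gave 0.42 ± 0.13, adjusted p = 0.02 for MT-ND1, 0.58 for MT-ND3, 0.51 for MT-ND4, 0.51 for MT-ND4L, 0.38 for MT-ND5 and 0.46 for MT-ND6, all called. MT-ND2 was the gene that did not pass, at 0.32 ± 0.13, adjusted p = 0.0897, with a lowest of 3117, a median of 4751 and a highest of 6326 CPM in knockdown neurites, and a lowest of 3106, a median of 3749 and a highest of 4481 CPM in nontargeting neurites. MT-CYB lay at 0.46, MT-CO2 at 0.52 and MT-ATP6 at 0.52, all called. The call of MT-ND1 was lost without knockdown library 1 or nontargeting library 3, and that of MT-ND5 in 8 of the 12 fits that left out 1 library.

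MT-RNR1 had a lowest of 9240.4, a median of 13301 and a highest of 16859 CPM in hnRNPA1 knockdown neurites, and a lowest of 4691, a median of 9194 and a highest of 10752 CPM in nontargeting neurites, a log2 difference of 0.70 ± 0.17, adjusted p = 0.00475. MT-RNR2 had a lowest of 17706, a median of 24060.0 and a highest of 30602 CPM in knockdown neurites, and a lowest of 8485, a median of 15136 and a highest of 18732 CPM in nontargeting neurites, with a difference of 0.77 ± 0.17, adjusted p = 0.00136. Both values were above those of the mRNAs. Of the 22 tRNAs 4 were higher: MT-TF for phenylalanine at 0.80 ± 0.16, adjusted p = 0.000854, MT-TA for alanine at 0.59, MT-TV at 0.58 and MT-TP at 0.30, the last lost in 6 of the 12 fits that left out 1 library. MT-TF and MT-TV lie on either side of MT-RNR1 in the genome. With plain library sizes the median of all genes in this comparison moved to -0.14, the protein median to 0.36, and 10 of 13 protein genes were called. Of the tRNAs 3 then were higher and 1 was lower, MT-TY at -0.38. Of all 19812 genes 615 were higher and 3807 lower with that scaling.

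In soma 0 of 13 protein genes passed edgeR's test, where 7.09% of all genes were called in either direction, 3 had an unadjusted p under 0.05, DESeq2 called 0 as well, and the median was 0.21. MT-CO1 had a lowest of 2438, a median of 3049.8 and a highest of 3310.5 CPM in hnRNPA1 knockdown soma, and a lowest of 1928, a median of 2522 and a highest of 3141 CPM in nontargeting soma, a log2 difference of 0.21 ± 0.11, adjusted p = 0.299. MT-RNR1 was the only one of the 37 genes that passed there, at 0.57 ± 0.17, adjusted p = 0.0385, with a lowest of 1795, a median of 2053 and a highest of 2884 CPM in knockdown soma, and a lowest of 1115, a median of 1265 and a highest of 2257 CPM in nontargeting soma. That call was lost in 8 of the 12 fits that left out 1 library, and in DESeq2. Of the tRNAs 0 passed, with 5 at an unadjusted p under 0.05. A test of whether the knockdown changed the neurite to soma ratio called 0 of the 37 genes, where it called 0.177% of all genes in either direction. The median over the protein genes was 0.29, with 2 at an unadjusted p under 0.05, and DESeq2 also called 0. The higher mRNA levels in neurites were therefore not shown to differ from the change in soma.

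The same was asked of TDP43, an RNA-binding protein whose loss from the nucleus is a feature of amyotrophic lateral sclerosis. In neurites all 13 protein genes were higher with the knockdown, where 14% of all 22014 genes were called higher, with log2 differences from 0.33 for MT-CO3 to 0.79 for MT-ND6 and a median of 0.56, beside -0.03 for all genes. The knockdown and nontargeting libraries did not overlap for 11 of the 13, where 8.71% of all genes were higher without overlap. Of the tRNAs 14 were higher and 1 was lower, and of the rRNAs MT-RNR1 was higher. Without scaling factors the protein median was 0.60 and 12 of 13 passed.

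MT-ND6 had 1768, 2239, 2138, 1537 and 1774 CPM in TDP43 knockdown neurites, against 1254, 1086, 888, 1108 and 1127 CPM in nontargeting neurites, a log2 difference of 0.79 ± 0.11, adjusted p = 2.65e-06. MT-ND1 had 3588, 5022, 4611, 3110.0 and 3520.0 CPM in knockdown neurites, against 2926, 2577, 2268, 2542 and 2580.3 CPM in nontargeting neurites, with a difference of 0.62 ± 0.11, adjusted p = 0.00019. MT-ND5 had 4879.5, 6346, 5927, 4189 and 4680.1 CPM in knockdown neurites, against 3509.9, 3094, 2568, 3022 and 3139 CPM in nontargeting neurites, with a difference of 0.76 ± 0.11, adjusted p = 7.32e-06. In these complex I genes every knockdown library was above every nontargeting library. The other complex I genes lay at 0.63 (MT-ND2), 0.36 (MT-ND3), 0.56 (MT-ND4) and 0.58 (MT-ND4L), all called, and among them only MT-ND3 overlapped. MT-CYB had 2823, 3709, 3519.7, 2472 and 2752 CPM in knockdown neurites, against 2250.2, 2054, 1774, 2060.3 and 2118 CPM in nontargeting neurites, with a difference of 0.57 ± 0.10, adjusted p = 0.000154. MT-CO1 had 7711, 10509, 10164, 6772 and 7398 CPM in knockdown neurites, against 6279, 5720.2, 5865, 6188 and 6223 CPM in nontargeting neurites, with a difference of 0.49 ± 0.11, adjusted p = 0.00138. These too were apart. MT-CO2 lay at 0.49, MT-ATP6 at 0.51 and MT-ATP8 at 0.50, all called. MT-CO3 overlapped, with 1847, 2284, 2228, 1539.5 and 1759 CPM in knockdown neurites, against 1505, 1458, 1497, 1614 and 1584 CPM in nontargeting neurites, and its difference of 0.33 ± 0.10, adjusted p = 0.0148 was lost without knockdown library 2 or 3.

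MT-RNR1 had 10259, 11677, 9493, 6779.5 and 11545 CPM in TDP43 knockdown neurites, against 6488, 6211, 8359.5, 6973 and 6788 CPM in nontargeting neurites, a log2 difference of 0.51 ± 0.14, adjusted p = 0.00876. MT-RNR2 had 12234, 17418, 14602, 9256 and 12577 CPM in knockdown neurites, against 9154, 9742, 12910.0, 11134 and 10552 CPM in nontargeting neurites, with a difference of 0.30 ± 0.14, adjusted p = 0.125, which passed without knockdown library 4 or nontargeting library 4. Both rRNAs overlapped between the groups. For each 100 protein counts rRNA genes had 59.9 ± 7.18 counts in knockdown neurites and 68.5 ± 13.4 in nontargeting neurites, also overlapping.

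Among the tRNAs MT-TQ had 11.7, 8.60, 8.37, 7.53 and 14.1 CPM in TDP43 knockdown neurites, against 4.76, 3.505, 5.79, 5.11 and 5.90 CPM in nontargeting neurites, a log2 difference of 1.06 ± 0.21, adjusted p = 0.000491. MT-TT, the threonine tRNA, had 6.64, 9.20, 6.44, 7.004 and 5.83 CPM in knockdown neurites, against 5.52, 3.505, 2.53, 3.13 and 2.68 CPM in nontargeting neurites, with a difference of 0.92 ± 0.19, adjusted p = 0.00049. These and MT-TF, MT-TI, MT-TW and MT-TE did not overlap, 6 of 22. The other tRNAs called higher were MT-TL1, MT-TA, MT-TY, MT-TS1, MT-TD, MT-TG, MT-TR and MT-TP, at 0.38 to 1.01, while MT-TN and MT-TC, the most abundant there, lay at 0.12 and 0.25 and did not pass. MT-TS2, a serine tRNA, was the only member called lower, where 10.9% of all genes were. It had 0.851, 0.600, 1.45, 0.602 and 1.34 CPM in knockdown neurites, against 2.67, 2.30, 1.45, 1.99 and 1.502 CPM in nontargeting neurites, a log2 difference of -1.08 ± 0.29, adjusted p = 0.00634. The highest knockdown library and the lowest nontargeting library were level at 1.45 CPM, and the counts behind these values were 3 to 17 per knockdown library and 8 to 30 per nontargeting library. In 10 of the 15 called tRNAs the call held in all 10 fits that left out 1 library, and it was lost in at least 1 fit for MT-TL1, MT-TS1, MT-TD, MT-TG and MT-TR.

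In soma 0 of 13 protein genes passed edgeR's test, where 19% of all genes were called in either direction. At an unadjusted p under 0.05 there were 2, DESeq2 called 0, and the median log2 difference was 0.09. MT-CO1 had 1929.7, 1752, 1574 and 1353 CPM in TDP43 knockdown soma, against 1727, 1608, 1504, 1453 and 1397 CPM in nontargeting soma, a log2 difference of 0.10 ± 0.12, adjusted p = 0.608. MT-ND6 had 537, 459, 423 and 347 CPM in knockdown soma, against 431, 352, 347, 373 and 349 CPM in nontargeting soma, with a difference of 0.25 ± 0.11, adjusted p = 0.121. MT-ND3 had 71.8, 49.7, 49.3 and 47.5 CPM in knockdown soma, against 74.9, 65.4, 63.0, 63.4 and 54.6 CPM in nontargeting soma, with a difference of -0.24 ± 0.11, adjusted p = 0.123. Knockdown and nontargeting soma overlapped for all of these genes. Only the numbers 1, 2 and 4 were shared by both groups of this comparison. Deviations of these same-numbered libraries correlated at 0.148 to 0.294, but those of differently numbered ones reached 0.282. With the number as a block 2 of 13 passed, MT-ND6 higher at 0.22 (adjusted p = 0.0222) and MT-ND3 lower at -0.30 (adjusted p = 0.0019). These 2 calls rest on a pairing that the labels do not give and that leaves the other libraries without a partner. MT-TQ was the only member called without the block, at 0.68 ± 0.23, adjusted p = 0.0331, with 4.93, 2.61, 3.15 and 2.696 CPM in knockdown soma, against 2.33, 1.68, 1.02, 2.39 and 2.58 CPM in nontargeting soma. It did not overlap, where 11.1% of all genes were higher without overlap, and its call was lost in 4 of 9 fits that left out 1 library.

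**Figure D5:**
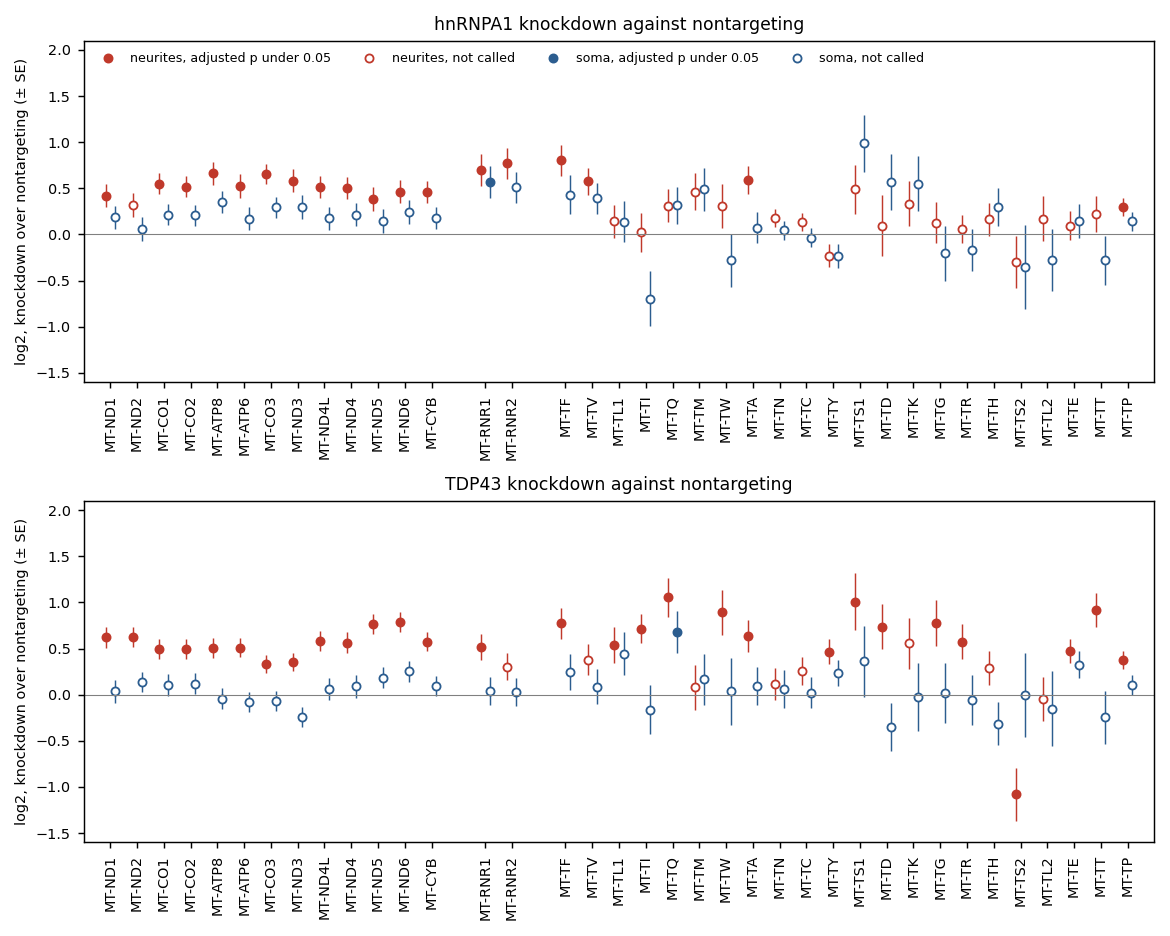
Log2 difference of knockdown over nontargeting (± SE) for the 37 genes, with 1 panel for hnRNPA1 and 1 for TDP43, neurites and soma in separate colours, filled points for adjusted p under 0.05 and open points for the others. Filled points are mostly those of neurites: 12 protein genes with hnRNPA1 knockdown and 13 with TDP43 knockdown, against no protein gene in soma, and MT-TS2 at -1.08 is the only filled point below 0.

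The neurite to soma ratio changed with the TDP43 knockdown for 9 of 13 protein genes and for the tRNAs MT-TD and MT-TT, all towards neurites, where 5.83% of all genes were called higher. The log2 changes of the ratio ran from 0.38 to 0.60 over the 13 genes, with a median of 0.52 beside -0.01 for all genes, and the highest were MT-ND3 at 0.60 ± 0.15, adjusted p = 0.00935 and MT-ATP6 at 0.59 ± 0.15, adjusted p = 0.012. MT-CO1, MT-CO2, MT-CO3 and MT-ND4 did not pass, nor did the rRNAs, at 0.48 and 0.27. The calls were narrow ones: with plain library sizes 0 of 13 passed although their median was 0.55. Calls fell for genes of any kind: of all 22014 genes 130 were higher and 198 lower with that scaling, against 1283 and 1026 with TMM. MT-ATP6 and MT-ND3 were the only protein genes called in all 19 fits that left out 1 library, with counts of 2 to 12. The count was 5 without knockdown neurite library 2 or nontargeting soma library 1, 4 without knockdown neurite library 3, and 2 without knockdown soma library 3 or 4. Of the tRNAs, 0 passed with plain library sizes. With 1 library left out, the call of MT-TT was lost without knockdown soma library 2 or nontargeting soma library 5 and that of MT-TD in 13 of 19 fits. Other measures moved with the knockdowns. The mean 7SL share, given above, was lower in TDP43 knockdown than in nontargeting neurites and higher in hnRNPA1 knockdown than in nontargeting neurites. A list of 7 markers of neural progenitors summed to 440 to 537 CPM in TDP43 knockdown and 356 to 424 CPM in nontargeting neurites, and to 565 to 713 CPM in hnRNPA1 knockdown and 449 to 557 CPM in nontargeting neurites, with 6 of the 7 above 1 CPM in each of the 4 groups. In soma the list gave 246 to 276 CPM with TDP43 knockdown and 188 to 239 CPM in its controls, and 324 to 362 CPM with hnRNPA1 knockdown and 245 to 268 CPM in its controls. The 10 markers of neurons summed to 9500.0 to 10620.0 CPM in TDP43 knockdown and 7163 to 8699 CPM in nontargeting neurites, which did not overlap. In soma they summed to 5715 to 6485 CPM with the knockdown and 6058 to 6505 CPM in its controls, which did overlap. With hnRNPA1 knockdown the neuron markers summed to 12900 to 14500 CPM in neurites and 8579 to 10940 CPM in soma. Its controls gave 11090 to 13670 and 7471 to 9015 CPM in that order, overlapping in both fractions. RNAs rich in nuclei, a mark of cell bodies, summed over 4 genes to 425 to 474.5 CPM in TDP43 knockdown and 461 to 558 CPM in nontargeting neurites, which overlapped. In soma they summed to 518 to 606.5 CPM with the knockdown and 409 to 504 CPM in its controls, which did not. All 3 of these genes that were tested were called higher in knockdown soma and lower in their neurite to soma ratio, with a median change of -0.45. Of all 22014 genes 2073 were higher in knockdown soma and 1026 lower in the ratio. With plain library sizes 0 of the 3 were called, beside 777 of all genes higher in soma and 198 lower in the ratio. The part of all these in the results above was not tested.

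The neurite to soma ratio was also compared between untreated cells and each set of nontargeting cells, which differ in guide RNA, experiment and kit version at once, so that these cannot be told apart. Set against the hnRNPA1 controls, untreated cells had the higher ratio for 9 of 13 protein genes, both rRNAs and 9 tRNAs and the lower one for MT-TS2, where 13.1% of all 29425 genes were called higher and 37.1% in either direction. Against the TDP43 controls the ratio was higher for 13 of 13 protein genes, both rRNAs and 6 tRNAs and lower for MT-TS2, where 13.5% of all genes were higher and 37.5% were called in either direction. The median log2 difference of the ratio was 0.49 and 0.74 over the protein genes, beside -0.41 and -0.48 over all genes. MT-ND1 differed by 0.63 ± 0.17, adjusted p = 0.00366 against the hnRNPA1 controls and by 0.75 ± 0.18, adjusted p = 0.000988 against the TDP43 controls. MT-RNR1 differed by 0.71 ± 0.26 and 0.95 ± 0.27 and MT-RNR2 by 0.77 ± 0.26 and 0.95 ± 0.27. MT-TQ was the tRNA with the largest difference against the TDP43 controls, 1.72 ± 0.27, adjusted p = 1.22e-06, and MT-TS2 was lower, at -1.35 ± 0.39, adjusted p = 0.00562 and -2.12 ± 0.47, adjusted p = 0.000413. With plain library sizes the medians of all genes moved to -0.995 and -0.90, and 0 and 1 of the 13 protein genes passed, so these calls depend on the scaling. The rRNA calls then were lost against the hnRNPA1 controls and held against the TDP43 controls. Of the tRNAs 4 then were higher and 6 lower against the hnRNPA1 controls, and 3 and 6 against the TDP43 controls. Of all 29425 genes 1992 were higher and 14191 lower against the hnRNPA1 controls with that scaling. Against the TDP43 controls 2333 of all genes were higher and 12266 lower. With 1 library left out, the call of MT-RNR1 against the hnRNPA1 controls was lost in 5 of 20 fits and that of MT-RNR2 without untreated neurite library 4. Of the tRNA calls, 3 of the 10 there and 2 of the 7 against the TDP43 controls were lost in at least 1 fit. Against the hnRNPA1 controls the protein count was 4 without untreated neurite library 4 and 5 without untreated neurite library 5. Between both sets of nontargeting cells, which share the kit version, 0 of 13 protein genes differed by edgeR, with 1 at an unadjusted p under 0.05, 0 by DESeq2, and 3.06% of all genes called in either direction. MT-TN was the member that did, lower in the hnRNPA1 controls at -0.86 ± 0.22, adjusted p = 0.0269, a call lost without TDP43 nontargeting soma library 1 or 6 or neurite library 4 or 5.

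Nuclear genes encode the proteins that make, cut, modify and degrade these RNAs. Of a list of 59 such genes (transcription and nucleoid, RNA processing, stability and decay, tRNA charging, and regulators of mitochondrial biogenesis), 16 were higher and 17 lower in untreated neurites than in soma, of 57 tested, with a median log2 difference of -0.17 beside -0.21 for all genes, of which 28.7% were called higher and 27.8% lower. It had 7 higher and 12 lower with hnRNPA1 knockdown, 10 and 26 in its controls, 14 and 30 with TDP43 knockdown, and 13 and 28 in its controls. Of all genes 16.4%, 24.9%, 29% and 22.4% were called lower in these 4 conditions in that order, beside the shares called higher that are given above. Scaled by plain library sizes, the list was mostly lower, from 45 genes lower in untreated cells to 52 in the TDP43 controls. Most genes of any kind were lower with that scaling: 14813 of 18556 in untreated cells and 14531 of 22014 in the TDP43 controls. TFB2M, a transcription factor that opens mitochondrial promoters for POLRMT, was higher in neurites in all 5 conditions with either scaling, at 2.36 ± 0.14, adjusted p = 2.06e-12 in untreated cells, with 44.5 ± 5.98 CPM in neurites, against 8.62 ± 0.990 CPM in soma (SD, n = 4 each). SLIRP, which protects mitochondrial mRNAs from decay with LRPPRC, lay at 2.45 ± 0.11, adjusted p = 3.5e-14 and had 179 ± 15.3 CPM in untreated neurites and 32.7 ± 4.76 CPM in soma. FASTKD1, a regulator of mitochondrial mRNA stability, lay at 2.03. VARS2, the mitochondrial valine-tRNA synthetase, was lower in neurites in all 5 conditions, at -1.598 ± 0.42, adjusted p = 0.00302 in untreated cells, and TBRG4, a regulator of mitochondrial RNA also known as FASTKD4, and MARS2, the methionine-tRNA synthetase, lay at -1.27 and -1.26 there.

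The same list was compared between knockdown and nontargeting cells. In neurites 4 were higher and 4 lower with hnRNPA1 knockdown, and 9 and 5 with TDP43 knockdown. Of all genes 8.95% and 14% were called higher there and 7.21% and 10.9% lower. Under plain library sizes the counts of the list were 3 and 16 with hnRNPA1 knockdown and 2 and 1 with TDP43 knockdown. Of all genes 615 were higher and 3807 lower of 19812 with hnRNPA1 knockdown under that scaling, and 1797 and 789 of 22014 with TDP43 knockdown. In soma 1 gene of the list was higher and 1 lower with hnRNPA1 knockdown, and 6 and 1 with TDP43 knockdown, or 1 and 0 with plain library sizes. Of all genes in soma 751 were higher and 653 lower of 19812 with hnRNPA1 knockdown. With TDP43 knockdown 2073 and 2099 of all 22014 genes were, or 777 and 903 with plain library sizes. PPARGC1B, a coactivator of mitochondrial biogenesis, was higher in knockdown neurites of both experiments, at 0.46 ± 0.08, adjusted p = 8.36e-05 with hnRNPA1 knockdown and 0.38 ± 0.10, adjusted p = 0.00623 with TDP43 knockdown, and in knockdown soma of both, at 0.34 ± 0.07, adjusted p = 0.002 and 0.47 ± 0.09, adjusted p = 0.000264 in that order. POLRMT itself was higher at 0.41 ± 0.07, adjusted p = 0.000116 in hnRNPA1 knockdown neurites, and TFB2M, at -0.35 ± 0.10, adjusted p = 0.0165, and SLIRP, at -0.33 ± 0.09, adjusted p = 0.0079, were lower there. POLG2, the accessory subunit of the mitochondrial DNA polymerase, was lower in knockdown neurites of both experiments, at -0.39 ± 0.10, adjusted p = 0.00706 with hnRNPA1 knockdown and -0.55 ± 0.10, adjusted p = 0.000226 with TDP43 knockdown. PRORP, the nuclease of the mitochondrial RNase P that cuts the leading end of tRNAs, was lower at -0.46 ± 0.17, adjusted p = 0.0431 in TDP43 knockdown neurites, a call lost with plain library sizes (adjusted p = 0.216). The change of the neurite to soma ratio called 0 genes of the list for hnRNPA1 and POLG2 for TDP43, at -0.74 ± 0.14, adjusted p = 0.00156, or 0.0764 with plain library sizes.

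The nuclear-encoded partners of the mitochondrial proteins, 75 subunits of complexes I, III, IV and V, had a median difference of neurites over soma above 0 in all 5 conditions with TMM scaling. In untreated cells 70 of 74 tested were higher and 1 lower, with a median log2 difference of 2.18. The medians were 0.21 with hnRNPA1 knockdown (37 higher, 5 lower), 0.34 in its controls (42 and 10), 0.52 with TDP43 knockdown (47 and 6) and 0.46 in its controls (45 and 5), smaller than those of the mitochondrial protein genes in each. Of all genes 28.7%, 19.4%, 23.5%, 28.7% and 24.1% were called higher in these 5 conditions, untreated cells first. The 11 nuclear subunits of complex IV were all higher in all 5 conditions, with medians of 3.07, 0.63, 0.74, 1.06 and 0.87 in the same order. With plain library sizes the median of the 75 stayed above 0 in untreated cells, at 0.98, and was -0.23 with hnRNPA1 knockdown, -0.0016 in its controls, -0.01 with TDP43 knockdown and -0.17 in its controls, whereas the medians of the 13 mitochondrial protein genes, given above, stayed above 0 in all 5. Complex IV then had 11, 7, 9, 9 and 5 subunits higher in that order and 1 lower with hnRNPA1 knockdown. Of all genes 2113 of 18556 were higher with that scaling in untreated cells. In the same order 1169 and 1918 of 19812 were in the hnRNPA1 experiment, and 2171 and 1894 of 22014 in the TDP43 experiment. With hnRNPA1 knockdown 6 of the nuclear subunits were higher and 9 lower in neurites, with a median of -0.05, beside 8.95% and 7.21% of all genes. The counts were 0 and 35 with plain library sizes, with a median of -0.19. Of all 19812 genes 615 were higher and 3807 lower with that scaling, with a median of -0.14. In soma 1 subunit was higher and 0 lower, beside 751 and 653 of all 19812 genes. With TDP43 knockdown 14 were higher and 1 lower in neurites, with a median of 0.12, beside 14% and 10.9% of all genes. The counts were 10 and 0 with plain library sizes, beside 1797 and 789 of all 22014 genes. In soma 6 subunits were higher and 0 lower, beside 2073 and 2099 of all 22014 genes. With plain library sizes these counts were 1 and 0, beside 777 and 903 of all genes. The ratio of neurites to soma was higher in untreated than in nontargeting cells for 68 and 68 of the subunits and lower for 2 and 1, against the hnRNPA1 and the TDP43 controls in that order. Of all 29425 genes 3868 and 3962 were higher and 7042 and 7070 lower in the same order.

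Copies of mitochondrial sequence in the nuclear genome, pseudogenes with their own entries in the table, can take up reads of the mitochondrial genes. The 404 copies listed there held 9.42 counts per 100 counts of the 13 protein genes in untreated neurites and 9.22 in untreated soma, and from 6.83 to 9.42 over all 10 groups. The most abundant was MTCO1P12, a copy of MT-CO1, with 3150.0 CPM in untreated neurites and 418 CPM in untreated soma. Adding the copies to their mitochondrial genes changed no call of any member. Markers of other cells were low: 6 mesenchymal markers summed to at most 27.4 CPM and 8 glial markers to 48.9 CPM in any library, both reached in untreated soma. A list of 6 pluripotent markers reached at most 30.5 CPM, in TDP43 knockdown soma. It gave 27.3 to 30.5 CPM there and 20.7 to 22.5 CPM in the controls, which did not overlap. In neurites it gave 23.2 to 25.4 CPM with TDP43 knockdown and 24.1 to 29.5 CPM in the controls, which overlapped. Markers of cycling cells moved with the fraction, with 48.2 to 58.0 CPM in untreated neurites and 19.2 to 32.3 CPM in untreated soma over 5 genes, as did those of neural progenitors, with 221 to 260 CPM and 82.7 to 90.1 CPM over 7 genes, HES5 being at 0 in untreated neurites. In the version 3 libraries the progenitor markers ran from 356 to 713 CPM in neurites and from 188 to 362 CPM in soma, and the cycling markers from 11.4 to 24.8 CPM in neurites and from 5.23 to 12.7 CPM in soma. RNAs rich in nuclei, a mark of cell bodies, overlapped between fractions in untreated cells, with 620 to 900 CPM in neurites and 610 to 1106 CPM in soma over 4 genes. They overlapped too in both conditions of the hnRNPA1 experiment and in TDP43 nontargeting cells. In TDP43 knockdown cells every neurite library was below every soma library. Their part in the neurite to soma differences was not tested.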

How the data were processed

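RNA-seq counts of 52 libraries were used, 51 of them after a limit of 100000 counts per library, which 1 library with 541 counts did not reach. The deposited table holds expected counts, some of them fractional, for 63241 genes, and 81.1% of nonzero values are whole within 0.005. Per the submitters' processing notes the authors aligned reads to hg38 with STAR 2.7.11b and counted them with featureCounts of Subread 2.0.6. The sources used here do not give the annotation, the strand setting or the handling of reads with several matches, so reads shared by overlapping genes, or by a mitochondrial gene and its nuclear copies, may have been split or dropped. A list of names held 62030 of the gene identifiers, and GENCODE release 29 held 58228, which gave positions, strands and sequences.

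Counts were rounded to whole numbers. Each experiment was fitted in edgeR 4.0.16 under R 4.3.3, using TMM factors, filterByExpr (all 37 members passed), 1 coefficient per group and 2-sided quasi-likelihood tests. Differences of the neurite to soma ratio between experiments came from a fit of the untreated and both nontargeting sets. Adjustment was by the Benjamini-Hochberg method across every gene of a contrast, and a call needs an adjusted p under 0.05. A ± after a log2 value is its standard error and after other values the standard deviation. Shares of counts carry no test, and counting error was not added to them. The 7SL genes (850) and rRNA genes and pseudogenes (552) were left out of 1 alternative denominator. All 37 members are accounted for, with every protein and rRNA gene named, and of the 59 nuclear genes the 3 highest and the 3 lowest called genes per contrast could be named. The members and lists were chosen with earlier results of these data known.

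The chi-square of counts per degree of freedom in 108 pairs of libraries of 1 group lay between 1.91 and 161.3, so no pair was taken for a copy. Replicate numbers are shared between groups. Deviations from group means correlated above 0.1 for every same-numbered pair in TDP43 knockdown neurites and soma (0.137 to 0.274) and in TDP43 knockdown and nontargeting soma (0.148 to 0.294), which were taken as paired, a pairing that comes from the data and not from the labels. The shared numbers were 1 to 4 in the first of these comparisons and 1, 2 and 4 in the second, and the other libraries had no partner. Differently numbered pairs reached 0.215 and 0.282 in that order, so the values do not clearly single out the same-numbered pairs. Alternatives were plain library sizes, TMM without mitochondrial and 7SL genes, DESeq2 1.42.0, no filter, unrounded counts, counts summed with nuclear copies, 1 fit of all libraries, a replicate block, other denominators for shares, and leaving out each library. The fits were tested on simulated data.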

Additional observations from a re-analysis of the deposited data

Results flagged for a closer look

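In groups of 4 to 6 libraries, 250 sets of values were screened for a single library that stands apart from its group (the gap to its neighbour over the range), and 8 were found. Many of these sets come from the same libraries and are not independent, so the count was not compared with a number expected by chance. A TDP43 knockdown neurite library had 4.07% of counts in protein genes (median of its group 3.07%), and a TDP43 nontargeting neurite library had 1.41 MT-RNR2 counts per MT-RNR1 count (median 1.55). In untreated soma 1 library had 3447 CPM of MT-RNR1 (median 2529) and 6061 CPM of MT-RNR2 (median 4393). The others were MT-ND2 at 2102 CPM in a TDP43 nontargeting neurite library (median 1832), MT-ND3 at 71.8 CPM in a TDP43 knockdown soma library (median 49.5), and MT-TN at 33.1 CPM (median 42.2) and MT-TS2 at 4.88 CPM (median 2.43) in hnRNPA1 nontargeting neurite libraries.

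The neurite to soma ratio was changed by TDP43 knockdown, in edgeR's test of the interaction, for MT-ND1 (log2 0.59, adjusted p = 0.0239), MT-ND2 (0.49, adjusted p = 0.0416), MT-ND3 (0.60, adjusted p = 0.00935), MT-ND4L (0.52, adjusted p = 0.0393), MT-ND5 (0.58, adjusted p = 0.0206), MT-ND6 (0.54, adjusted p = 0.026), MT-CYB (0.48, adjusted p = 0.0413), MT-ATP6 (0.59, adjusted p = 0.012) and MT-ATP8 (0.55, adjusted p = 0.0231). The same test called the tRNAs MT-TD (1.09, adjusted p = 0.0462) and MT-TT (1.167, adjusted p = 0.0279). Of all genes 5.83% were called higher in it. Between untreated and nontargeting cells the ratio differed for 9 protein, 2 rRNA and 10 tRNA genes against the hnRNPA1 controls, and for 13, 2 and 7 against the TDP43 controls. Of all 29425 genes 37.1% and 37.5% were called in either direction, in that order. With plain library sizes 0 and 1 of the 13 protein genes passed. Between both sets of controls the ratio differed for 1 tRNA gene, MT-TN, where 3.06% of all genes were called in either direction.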

How the results depend on the processing

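Of 11423 values recomputed for 518 results, 11062 kept their side of the threshold, 248 fell below it, 106 passed it and 7 reversed. A value was counted as reversed only if its direction changed and at least 1 of both fits called it. Values called in neither fit that changed direction are thus among the 11062. TMM without mitochondrial and 7SL genes, and counts summed with nuclear copies, changed no call. Among hnRNPA1 knockdown soma protein genes, 0 were called in the fit reported and 3 without a filter, 3 with the replicate block, and 0 to 1 when 1 library was left out (1 without nontargeting soma library 4 or knockdown soma library 2 or 6). In TDP43 knockdown soma the count was 2 without a filter, 2 with the block and 0 to 1 with 1 library left out (1 without knockdown soma library 1 or 4). In TDP43 knockdown neurites the block gave 6 of 13. Of all genes it called 1174 higher and 696 lower of 17107, against 3077 and 2391 of 22014 without it. Same-numbered knockdown and nontargeting neurite libraries correlated at -0.21 to -0.004, so these values show no pairing by number. With 1 library left out 12 to 13 were called there, and 10 to 13 in hnRNPA1 knockdown neurites.

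The TDP43 change of the ratio gave 0 with plain library sizes, 2 in 1 fit of all libraries, 12 with the block and 2 to 12 with 1 library left out. Of all genes 130 of 22014 were higher with plain library sizes, 924 of 30081 in 1 fit of all libraries and 1386 of 22014 with the block. Against the hnRNPA1 controls untreated cells had 0 protein genes with plain library sizes and 4 to 11 with 1 library left out, and against the TDP43 controls 1 and 12 to 13. In that first comparison plain library sizes reversed the difference for MT-CO2 (-0.106), MT-ATP6 (-0.156), MT-ND3 (-0.102), MT-ND4L (-0.0879), MT-ND4 (-0.0092), MT-CYB (-0.09) and MT-TY (-0.038). The cause of these changes was not tested. The neurite to soma ratio of the protein share in TDP43 controls was 2.33 on all counts, 3.14 outside 7SL and rRNA genes and 3.14 among protein-coding genes, and 2.23 to 2.52 with 1 library left out. With 1 library left out that ratio was 2.65 to 2.95 in untreated cells, 3.35 to 3.66 with hnRNPA1 knockdown, 2.88 to 3.24 in its controls and 3.14 to 3.56 with TDP43 knockdown. The tRNA count in hnRNPA1 controls was 21 to 22. In the comparisons taken as paired the block changed no call of a member beyond MT-ND3 and MT-ND6 in TDP43 knockdown soma. For other pairs the labels do not say whether a shared number marks a shared culture. The fits reported use no pairing. Low counts limit the tRNAs, such as MT-TS2 with 3 to 5 counts per TDP43 nontargeting soma library, so their differences carry wide errors.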
